A study of Homo sapiens with 6 samples.

Results

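Zinc finger genes with a ZNF name and a number that lie on autosomes other than chromosome 19 were followed in RBE cells after knockdown of CHAF1A. A gene was taken when its symbol was ZNF followed by a number and at most 1 letter, its GRCh38 position was on an autosome other than 19, and at least 3 of the 6 libraries held at least 50 raw counts of it. Members were thus selected on their raw counts as well as on name and position. The rule took 198 of the 63186 genes in the table, 195 of them with a coding transcript and 3 pseudogenes. It read the count in each library but not the difference between the groups. Of 284 genes with such a name and position, the other 86 lay under the count limit, and 40 of those had no count in any library.

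RBE is an established human cell line derived from a bile duct cancer of the liver (intrahepatic cholangiocarcinoma). Lipofectamine was used at some 60% confluency to deliver either control siRNA (si-Ctrl) or an siRNA targeting CHAF1A (si-CHAF1A), with 3 libraries of each. The medium was changed after 24 h and RNA was taken at 48 h. The 6 libraries share the line, the transfection reagent and the harvest time, and the labels do not give the siRNA sequences or their number. CHAF1A encodes the large subunit of chromatin assembly factor 1, which places histones on newly replicated DNA.

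Most ZNF proteins carry a row of C2H2 zinc fingers, each a small fold around a zinc ion that reads a few bases of DNA. Many also begin with a KRAB box, which binds the corepressor TRIM28 (KAP1). TRIM28 brings in the histone methyltransferase SETDB1 and the HP1 proteins, and this pathway is best known for silencing transposable elements. ZNF genes arose by repeated duplication, so neighbours in the genome are often close relatives. Members without KRAB have varied roles, from transcription factors to proteins of the ribosome and the mitotic spindle.

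Totals per library ran from 15643381 to 20918997 counts, and 15911 genes were tested, among them all 198 ZNF genes. Levels are CPM, the counts divided by the library's TMM-scaled size and put on a common scale, with the SD over 3 libraries (n = 3) after the sign ±. CHAF1A itself had levels of 51.5, 59.8 and 51.0 CPM under si-Ctrl and of 11.1, 12.9 and 11.2 CPM under si-CHAF1A. All 8 biliary epithelial markers looked up were detected, among them the keratins KRT7, KRT8, KRT18 and KRT19. In the test used below, 5 of the 8 were higher in si-CHAF1A and 2 lower, beside 18.5% and 19.3% of all tested genes. Among the higher ones the call of CDH1, named after its values were seen, was lost without si-CHAF1A 1, si-CHAF1A 2, si-CHAF1A 3 or si-Ctrl 1. Of 6 hepatocyte markers 5 stayed under 1 CPM in every library, and 1 was tested and higher. This was SERPINA1, also named after its values were seen, and its call was lost without si-CHAF1A 1, si-Ctrl 1 or si-Ctrl 2. Of 10 blood, endothelial and stromal markers 5 stayed under 1 CPM in every library, and 4 were tested, of which 2 were higher. On the first principal component (65.1% of the variance) the groups separated, and on the second (11.2%) si-Ctrl 2 stood apart from the other 5 libraries.

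Promoters of ZNF genes share sequence, and the stretches shown here let a reader see how close some of them are. RefSeq sequences from 250 bases before to 50 bases after a gene's start were at hand for 165 of the 198 genes. Among words of 12 letters, counted on both strands, 2 were the most frequent, each in 7 of the 165 promoters. The first, ATCCCGGAAGCC, holds CCGGAAG, a core that factors of the ETS family bind. It was in 25 of 27305 promoters in all (0.0916%), 7 of them of ZNF genes on chromosome 19 that met the same count rule. ZNF genes on chromosome 19 under the count limit were not counted apart. All 7 genes outside chromosome 19 that carry it have KRAB. The 7 stretches are 30 bases of RefSeq GRCh38.p14, 5′ to 3′ on the gene's strand, and the capitals mark the reverse complement of the word.
ZNF107 (chr7:64666103-64666132, + strand): cggacaggacGGCTTCCGGGATttggcggg
ZNF680 (chr7:64563077-64563106, - strand): ggacaggacGGCTTCCGGGATttggcgggg
ZNF267 (chr16:31873762-31873791, + strand): agcaggggcGGCTTCCGGGATttggcgggg
ZNF195 (chr11:3379168-3379197, - strand): ggagaggacGGCTTCCGGGATctagcgggg
ZNF669 (chr1:247104366-247104395, - strand): ggagagggcGGCTTCCGGGATctgcctggc
ZNF141 (chr4:337784-337813, + strand): ggaggcggtGGCTTCCGGGATgtggcgcgg
ZNF595 (chr4:53290-53319, + strand): ggaggggttGGCTTCCGGGATctggcgcgg
The second word, CCAATCAGGCAC, begins with the CCAAT box and was in 24 of all promoters. Of these, 8 belonged to ZNF genes on chromosome 19 that met the count rule. It lies just before the first word in the promoters of ZNF107, ZNF680, ZNF195 and ZNF141. Shown here are its 4 carriers that lie close together on chromosome 7, and the capitals mark it.
ZNF107 (chr7:64666072-64666101, + strand): gggaaccgtCCAATCAGGCACgcagctgga
ZNF680 (chr7:64563109-64563138, - strand): gggacccgtCCAATCAGGCACgcagctgga
ZNF92 (chr7:65373788-65373817, + strand): gggaaccatCCAATCAGGCACgcaactgga
ZNF138 (chr7:64794361-64794390, + strand): gggaacggtCCAATCAGGCACccagctgga
Of these 4 genes ZNF107 and ZNF92 were lower in si-CHAF1A than in si-Ctrl, with log2 fold changes of -0.35 and -0.42, and ZNF680 and ZNF138, at 0.01 and 0.06, did not pass the test. ZNF92 had an adjusted p of 0.0117, and of 0.0671 without si-CHAF1A 2, and was lost also without si-Ctrl 3. The 7 carriers of the second word gave none higher and 2 lower, with a median log2 fold change of -0.12. The lowest of them, at -0.49, was ZNF775, which has no KRAB and did not pass (adjusted p 0.0643). The 7 genes with the first word had log2 fold changes from -0.35 to 0.16, and only ZNF107 among them passed. Genes with nearly the same promoter stretch thus lay on both sides of 0. ZNF92, ZNF138, ZNF195, ZNF267, ZNF595, ZNF669, ZNF680 and ZNF775 were named after their values were seen.

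A shorter word, GCATGCG, is part of the palindrome that the factor NRF1 binds. It was found, on either strand, in 18 of the 165 promoters (10.9%) and in 4.13% of all promoters, which were taken without regard to counts. The genes shown are those among the 18 with the largest rises and the largest fall, and the capitals mark the word.
ZNF664 (chr12:123973148-123973177, + strand): cgggtggccgcGCATGCGtgcggcccccgc
ZNF84 (chr12:133037267-133037296, + strand): ccttccttcgcGCATGCGcacatgcactct
ZNF273 (chr7:64877527-64877556, + strand): ctcgcgaatgcGCATGCGccagtagcgggg
ZNF664 and ZNF84 were higher in si-CHAF1A, with log2 fold changes of 1.49 and 0.74, and ZNF273 was lower, at -0.67. In all, 6 of the 18 genes were higher and 2 lower, while 18 of the 147 promoters without the word belonged to higher genes and 21 to lower ones. Of all tested genes 18.5% were higher and 19.3% lower. Without si-CHAF1A 2 the 18 genes gave 2 higher, ZNF664 and ZNF84, and 2 lower. The word was chosen after the values were seen, so these counts carry no test.

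The change across the 198 genes was small. In edgeR's quasi-likelihood test with Benjamini-Hochberg adjustment over all 15911 genes, at a threshold of 0.05, 33 of the 198 were higher in si-CHAF1A and 24 lower. Over all tested genes 18.5% were higher and 19.3% lower, which makes 37.8% in either direction, against 28.8% of the ZNF genes. The share of ZNF genes past the test was thus below the background. Only ZNF664 changed by at least 2-fold, which 5.65% of all tested genes did while passing the test. The median log2 fold change was 0.01 for the ZNF genes and 0.00 for all tested genes. Without regard to sign, the median size was 0.19 for the ZNF genes and 0.26 for all genes.

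Log2 fold changes under 0.25 in size were found for 115 of the 198 genes (58.1%) and for 48.4% of all tested genes. Another 65 lay between 0.25 and 0.5, 17 between 0.5 and 1, and 1 above 1. All 3 si-CHAF1A libraries lay above all 3 si-Ctrl libraries for 49 ZNF genes and below them for 37. Over all tested genes, 24.1% lay above and 24.1% below. Of the 57 genes that passed the test, 56 had groups that did not overlap, the exception being ZNF652 (named after its values were seen). Among the 99 with the higher mean level 21 rose and 16 fell, and among the 99 with the lower mean level 12 rose and 8 fell, so that calls were more frequent where counts were higher. Without si-CHAF1A 2 the counts were 14 and 10 against 7 and 4. The part of the level in these counts was not tested.

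**Figure D1:**
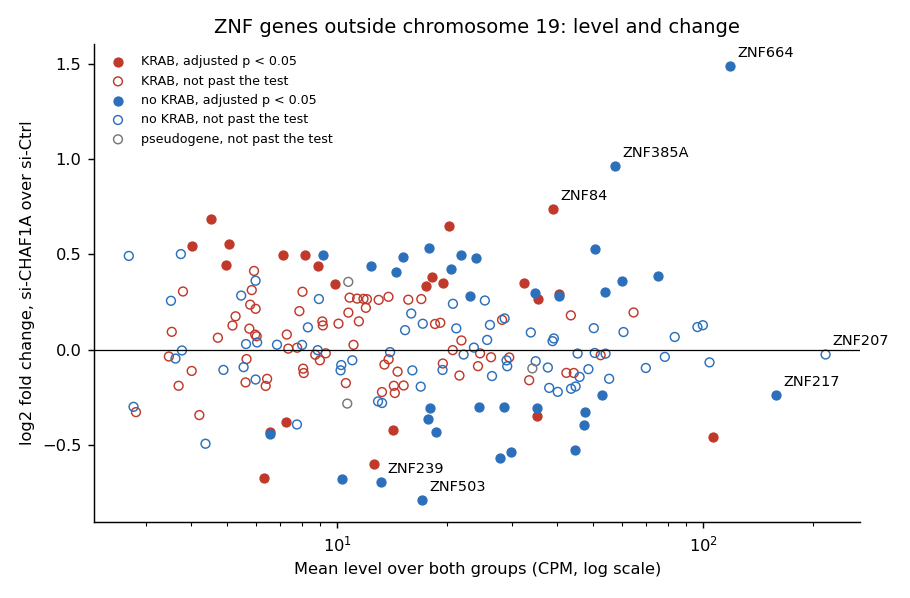
Each point is 1 of the 198 ZNF genes, with its mean level over both groups (CPM, log scale) on the horizontal axis and its log2 fold change, si-CHAF1A over si-Ctrl, on the vertical axis; filled points passed edgeR's test at an adjusted p under 0.05, and colours separate genes with KRAB, without KRAB and pseudogenes. ZNF664 stands alone at 1.49, followed by ZNF385A at 0.96, and the lowest point is ZNF503 at -0.79.

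Summed over all 198 genes, the level was 4870, 4667 and 4794 CPM under si-Ctrl and 4876, 4944 and 4963 CPM under si-CHAF1A. The groups did not overlap, but si-Ctrl 1 and si-CHAF1A 1 differed by less than the other si-Ctrl libraries did from each other. The ratio of the group means was 1.03. For the 101 genes without KRAB the ratio was also 1.03, and 0.998 once ZNF664 was left out. ZNF664 thus made up the rise in the summed level of that class.

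The 8 largest rises and 8 largest falls, described next, were taken among called genes whose groups did not overlap. That their groups lie apart was thus set by the choice and is no further result. ZNF664 encodes a C2H2 zinc finger protein without KRAB and lies at chr12:123971845-124015439 (GRCh38, as are all gene positions here). It was at 65.7, 55.7 and 65.3 CPM in si-Ctrl and at 173, 174 and 176 CPM in si-CHAF1A. Every si-CHAF1A library was more than 100 CPM above every si-Ctrl library. The log2 fold change was 1.49 ± 0.07 (SE), or 2.81-fold, with an adjusted p of 5.82e-10 in edgeR's test. Its exons overlap those of CCDC92 on the opposite strand, and the strand setting of the counting is not given in the sources used here. CCDC92 rose as well, from 3.82 ± 0.42 to 8.18 ± 1.24 CPM. The gene RFLNA, which overlaps on the same strand, was close to 0 in all libraries.

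ZNF385A (chr12:54369133-54391298) encodes a protein with fingers that bind double-stranded RNA, and is known as a partner of p53. Its level was 36.9, 44.0 and 35.9 CPM in si-Ctrl and 77.2, 73.0 and 78.0 CPM in si-CHAF1A. The lowest si-CHAF1A library was well above the highest si-Ctrl library. The log2 fold change was 0.96 ± 0.08 (SE), with an adjusted p of 3.39e-07 in edgeR's test. ZNF84, a KRAB gene at chr12:133037292-133063304, stood at 30.5, 26.1 and 31.1 CPM in si-Ctrl and 48.9, 52.1 and 45.4 CPM in si-CHAF1A. The groups were again apart, and the log2 fold change was 0.74 ± 0.09 (SE), adjusted p 1.07e-05. All 3 of the genes with the largest rises are thus on chromosome 12, at distant places along it.

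The next rises were of KRAB genes. ZNF300 (chr5:150894392-150904983) was at 17.5, 13.5 and 16.4 CPM in si-Ctrl and 24.8, 25.7 and 23.7 CPM in si-CHAF1A, a log2 fold change of 0.65 ± 0.11 (SE, adjusted p 0.000184). ZNF184 (chr6:27450743-27473118) went from 3.39, 3.03 and 4.01 CPM to 5.29, 6.26 and 5.22 CPM, a log2 fold change of 0.69 ± 0.18 (SE, adjusted p 0.00646). In both genes the groups did not overlap, but the spread of ZNF184 was larger in proportion to its level. ZNF140, at 4.11 ± 0.37 CPM in si-Ctrl and 6.03 ± 0.76 in si-CHAF1A, rose by a log2 fold change of 0.56 (adjusted p 0.0151). Its exons overlap those of the more abundant ZNF891 on the opposite strand. ZNF891 went from 14.3 ± 1.29 to 17.1 ± 0.46 CPM and did not pass (0.26, adjusted p 0.0585). ZNF589 went from 3.27 ± 0.49 to 4.75 ± 0.82 CPM, a log2 fold change of 0.54 (adjusted p 0.0404). Neither the call of ZNF140 nor that of ZNF589 held without each library in turn. ZNF140 had an adjusted p of 0.082 without si-CHAF1A 2, and was lost also without si-Ctrl 3. ZNF589 reached 0.174 without si-CHAF1A 2, and was lost also without si-CHAF1A 1, si-Ctrl 2 or si-Ctrl 3. ZNF512, a gene without KRAB, completed the 8 largest rises with 14.6 ± 0.46 CPM in si-Ctrl and 21.1 ± 2.51 CPM in si-CHAF1A, a log2 fold change of 0.53 (adjusted p 0.00103).

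Among the falls, the largest was that of ZNF503 (chr10:75397830-75401906), a transcriptional repressor of the NET family known from development. It was at 20.8, 22.8 and 21.4 CPM in si-Ctrl and at 14.1, 11.6 and 11.9 CPM in si-CHAF1A. All si-CHAF1A libraries lay below all si-Ctrl libraries, with a log2 fold change of -0.79 ± 0.11 (SE) and an adjusted p of 2.9e-05 in edgeR's test. ZNF239 (chr10:43556344-43574618), also called MOK2, encodes a protein that binds both DNA and RNA. Its level was 16.9, 15.9 and 16 CPM in si-Ctrl and 9.33, 11.3 and 9.54 CPM in si-CHAF1A. The groups were clearly apart, and the log2 fold change was -0.69 ± 0.11 (SE, adjusted p 0.000161).

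ZNF511 (chr10:133308475-133313162) was at 12.6, 13.5 and 12 CPM in si-Ctrl and 8.38, 7.12 and 8.30 CPM in si-CHAF1A, with a log2 fold change of -0.68 ± 0.12 (SE, adjusted p 0.000377). Its exons overlap those of TUBGCP2 on the opposite strand, which had a log2 fold change of -0.12 and did not pass the test. ZNF273 (chr7:64870172-64930966), a KRAB gene, was at 8.32, 6.57 and 8.37 CPM in si-Ctrl and 6.12, 4.02 and 4.43 CPM in si-CHAF1A. The lowest si-Ctrl library was only just above the highest si-CHAF1A library, and the log2 fold change was -0.67 ± 0.18 (SE, adjusted p 0.00696). ZNF778, also with KRAB, fell from 15.2 ± 1.35 to 10.0 ± 1.47 CPM (log2 fold change -0.60, adjusted p 0.00139).

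The remaining large falls were of genes without KRAB. ZNF768, which binds to copies of an old interspersed repeat family, fell from 33.2 ± 3.52 to 22.5 ± 2.39 CPM (log2 fold change -0.57, adjusted p 0.000467). ZNF367, a gene of proliferating cells, was at 40.2, 29 and 36.8 CPM in si-Ctrl and 22.4, 26.2 and 24.1 CPM in si-CHAF1A. Its si-Ctrl libraries were spread widely, with si-Ctrl 2 nearest to the si-CHAF1A libraries. The log2 fold change of ZNF367 was -0.54 ± 0.11 (SE, adjusted p 0.00147). ZNF292, a large protein in which mutations cause a neurodevelopmental disorder, fell from 52.7 ± 4.07 to 36.6 ± 3.33 CPM (log2 fold change -0.52, adjusted p 0.000226). These 8 falls each passed edgeR's test without any 1 of the 6 libraries, the highest adjusted p being 0.0477 for ZNF273 without si-CHAF1A 2.

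**Figure D2:**
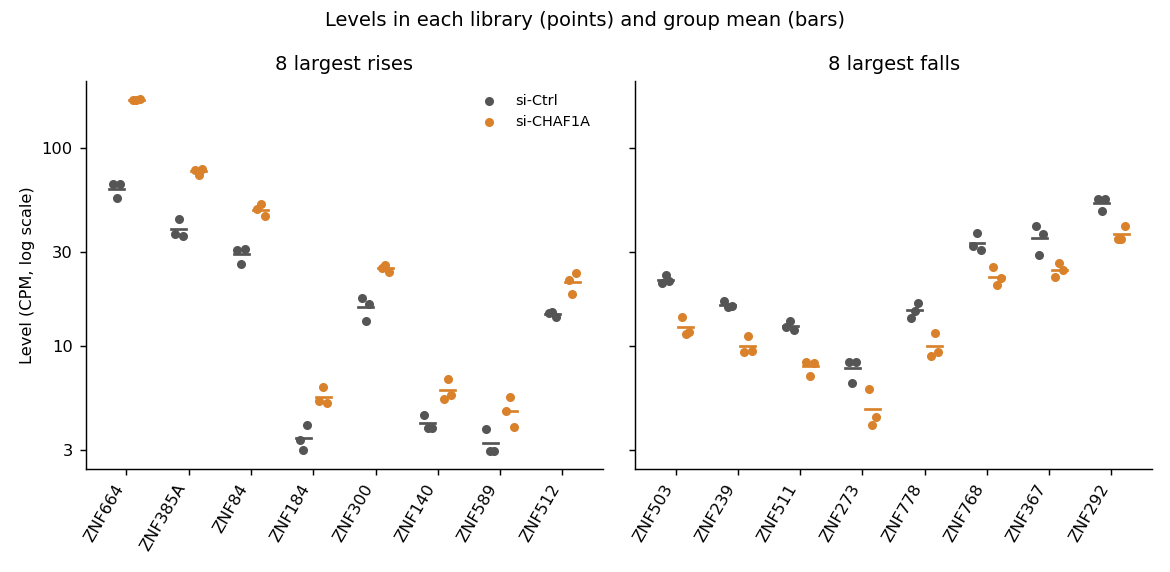
Levels in CPM (log scale) in each library (points) and the group mean (bars) for the 8 ZNF genes with the largest rises and the 8 with the largest falls; grey marks si-Ctrl and orange si-CHAF1A. The 16 genes were taken among those whose groups do not overlap, so the gaps between groups were set by the choice. Only ZNF664, at 55.7 to 65.7 CPM in si-Ctrl and 173 to 176 CPM in si-CHAF1A, is separated by more than 2-fold.

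The order of levels among the genes was read per length, as CPM per kilobase of exon. In si-Ctrl the highest was ZNF217 (chr20:53567065-53609907), at 27.7 CPM per kilobase. ZNF217 is an oncogene amplified in several carcinomas and acts with corepressor complexes. In CPM it was at 180, 155 and 178 in si-Ctrl and at 146, 145 and 144 in si-CHAF1A, a fall with a log2 fold change of -0.24 ± 0.07 (SE, adjusted p 0.0123). The groups did not overlap, but the call was lost without any 1 of 4 libraries (si-CHAF1A 2, si-CHAF1A 3, si-Ctrl 1 or si-Ctrl 3), with an adjusted p of at most 0.0608. The next 3 genes in order did not pass the test. ZNF622, which takes part in the maturation of the large ribosomal subunit, was at 22.5 CPM per kilobase in si-Ctrl and 23.2 in si-CHAF1A. ZNF598, the ubiquitin ligase that senses collided ribosomes, was at 17.4 and 18.2. The pseudogene ZNF731P was at 16.4 and 15.3. After the knockdown ZNF664 reached 27.5 CPM per kilobase, from 9.82 in si-Ctrl, close to the control level of ZNF217.

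KRAB was sought in the translated GENCODE transcripts as at least 10 of 24 conserved letters of the A box, which found it in 94 of the 195 coding genes. Weak boxes can be missed by this search. Of the 94 genes with KRAB 16 were higher and 7 lower, with a median log2 fold change of 0.08. Of the 101 genes without KRAB 17 were higher and 17 lower, with a median of -0.02. The shares were 17.0% higher and 7.45% lower with KRAB, and 16.8% in each direction without. Of all tested genes 18.5% were higher and 19.3% lower. Genes with KRAB were thus not more often higher than all genes, and were less often lower. The 3 pseudogenes did not pass the test. Per length, the median level in si-Ctrl was 1.85 CPM per kilobase of exon for genes with KRAB and 4.29 for genes without. Without si-CHAF1A 2 the KRAB genes gave 5 higher and 4 lower, without si-CHAF1A 3 they gave 10 higher, and without si-Ctrl 3 they gave 9 higher and 4 lower. Genes without KRAB then ranged from 14 to 21 higher and from 10 to 20 lower. All tested genes went from 2944 higher and 3064 lower to 2349 and 2358 without si-CHAF1A 2. The difference between the classes was not tested.

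On chromosome 19, where most KRAB genes lie, 180 ZNF genes met the same name and count rule. There 39 were higher and 10 lower, with a median log2 fold change of 0.14. This makes 21.7% higher and 5.56% lower, beside 18.5% and 19.3% of all tested genes. The 157 with KRAB gave 37 higher and 4 lower and a median of 0.17, against 0.08 for KRAB genes elsewhere. The 23 without KRAB gave 2 higher and 6 lower and a median of -0.15, and 5 higher and 8 lower without si-Ctrl 2. A median above 0 was thus seen for KRAB genes both on and off chromosome 19, in each of 12 alternative fits. With upper quartile scaling the median of all tested genes was itself 0.05, against 0.13 for KRAB genes off chromosome 19. With no filter on low counts these medians were 0.05 and 0.07. The median of -0.02 for genes without KRAB outside chromosome 19 was 0.03 with upper quartile scaling and 0.01 without si-Ctrl 1, so its sign was not settled. These are counts of neighbouring, related genes read off the same 6 libraries, and no test of a difference between the chromosomes was made.

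Genes were also divided by the number of C2H2 fingers. The 83 with at least 10 fingers gave 16 higher and 8 lower (median 0.10), and the 103 with 1 to 9 fingers gave 15 higher and 13 lower (median -0.03). The 9 coding genes in which no finger was found by the search gave 2 higher and 3 lower, ZNF503 among the lower ones. The shares were 19.3% higher and 9.64% lower with at least 10 fingers, and 14.6% and 12.6% with 1 to 9. Of all tested genes 18.5% were higher and 19.3% lower. Without si-CHAF1A 2 the counts were 9 and 4 for genes with at least 10 fingers and 10 and 8 for those with 1 to 9. Finger number and KRAB go together in this family, so these are not separate measurements.

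**Figure D3:**
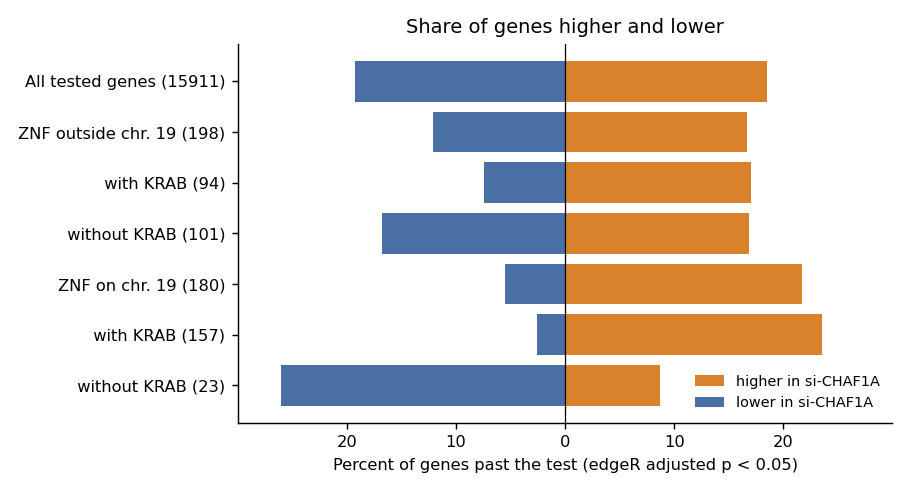
Bars give the percent of genes past edgeR's test, higher in si-CHAF1A to the right and lower to the left of 0, for all tested genes, the ZNF genes outside chromosome 19, those on it, and each with and without KRAB (number of genes in parentheses). Genes outside chromosome 19 with KRAB had 17.0% higher and 7.45% lower, those without had 16.8% in each direction, and KRAB genes on chromosome 19 had 23.6% higher and 2.55% lower.

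Neighbouring ZNF genes were grouped into runs of at least 3 with gaps of at most 250 kb. There were 15 runs with 79 genes, of which 12 were higher and 7 lower. The 119 genes outside runs gave 21 higher and 17 lower. Genes in runs thus had 15.2% higher and 8.86% lower, beside 18.5% and 19.3% of all tested genes. Without si-CHAF1A 2 they gave 4 higher and 5 lower, and the genes outside runs 17 and 9. At the end of the long arm of chromosome 12 (chr12:132918308-133214831) lay 7 KRAB genes, of which 4 were higher, none lower, and 6 had a log2 fold change above 0. Besides ZNF84 and ZNF140 these were ZNF26, at 15.4 ± 0.82 and 19.5 ± 2.50 CPM, and ZNF10, at 5.95 ± 1.33 and 8.33 ± 0.67 CPM, both named after their values were seen. Their adjusted p-values, 0.0239 and 0.0276, were 0.152 and 0.114 without si-CHAF1A 2. ZNF26 was lost also without si-Ctrl 3, and ZNF10 without si-CHAF1A 3 or si-Ctrl 2. ZNF10, also known as KOX1, is the source of the KRAB domain used in synthetic repressors. ZNF84 was the only one of the 4 still past the test without si-CHAF1A 2, and 2 of the 4 passed without si-Ctrl 3. The run's median log2 fold change was 0.34, and 0.24 without si-CHAF1A 2. Exons of ZNF140 and ZNF891, both in this run, overlap on opposite strands, so their counts may not be separate. In all, 6 of the 12 ZNF genes of chromosome 12 were higher and none lower, with 3 higher without si-CHAF1A 2 and 4 without si-Ctrl 3.

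A second run with several rises lay on the short arm of chromosome 16 (chr16:3112560-3443553). Of its 7 genes, ZNF205, ZNF200 and ZNF263 were higher and none was lower, beside 18.5% higher and 19.3% lower of all tested genes. ZNF200 rose from 12.5 ± 0.96 to 16.5 ± 1.17 CPM (log2 fold change 0.41, adjusted p 0.00745), and ZNF205 from 7.51 ± 0.65 to 10.2 ± 0.91 CPM (0.44, adjusted p 0.0144). ZNF263, a protein with both a SCAN and a KRAB domain, was at 17.1 ± 1.01 and 21.8 ± 2.40 CPM (0.35, adjusted p 0.0154). Of the 3 only ZNF200 passed without si-CHAF1A 2, where ZNF205 had an adjusted p of 0.0677 and ZNF263 one of 0.10, and ZNF205 was lost also without si-CHAF1A 1 or si-Ctrl 3. Exons of ZNF205 overlap ZNF213-AS1 on the opposite strand, which rose from 8.95 ± 0.34 to 12.3 ± 2.08 CPM.

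On chromosome 5 (chr5:178711592-179083537) the 4 genes ZNF354A, ZNF354B, ZNF879 and ZNF354C all had log2 fold changes above 0, from 0.19 to 0.50. ZNF354A rose from 6.78 ± 0.52 to 9.55 ± 0.26 CPM (adjusted p 0.00637). ZNF879 rose from 4.22 ± 0.28 to 5.73 ± 0.68 CPM (adjusted p 0.0436), a call lost without any 1 of 5 of the libraries, that is all but si-CHAF1A 1, with an adjusted p of at most 0.172. On chromosome 10 (chr10:37776526-38150293) the 4 KRAB genes ZNF248, ZNF25, ZNF33A and ZNF37A also lay above 0, from 0.15 to 0.41, but only ZNF37A passed the test, and not without si-CHAF1A 2 (adjusted p 0.115), si-CHAF1A 3 or si-Ctrl 1.

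Other runs leaned the other way or were mixed. Near the centromere of chromosome 7 (chr7:64307459-65006684) 2 of 6 genes were lower, beside 19.3% of all tested genes. The 2 were ZNF273, described above, and ZNF107, which fell from 39.4 ± 2.17 to 30.9 ± 0.69 CPM (log2 fold change -0.35, adjusted p 0.00309). The remaining 4, among them ZNF680 and ZNF138, had log2 fold changes from -0.22 to 0.19 and did not pass. On chromosome 10 (chr10:43556344-43648856) ZNF239 was lower, ZNF485 had a log2 fold change of -0.34 and ZNF32 one of -0.06, neither past the test. Further along chromosome 7 (chr7:99472841-99576453) ZNF655, a KRAB gene, fell from 123 ± 13.8 to 89.5 ± 2.57 CPM (-0.46, adjusted p 0.000311). Its exons overlap those of FAM200A on the opposite strand, which fell from 8.71 ± 1.10 to 5.89 ± 0.52 CPM (-0.56, adjusted p 0.00688). The neighbour ZNF789 had a log2 fold change of 0.27 and did not pass. The longest run, 11 genes at chr7:149069643-149867479, had a single call, ZNF467, which rose from 18.1 ± 1.85 to 25.6 ± 1.28 CPM (0.50, adjusted p 0.000945). No gene passed in runs on chromosomes 3 (ZNF619 to ZNF621), 4 and 8.

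**Figure D4:**
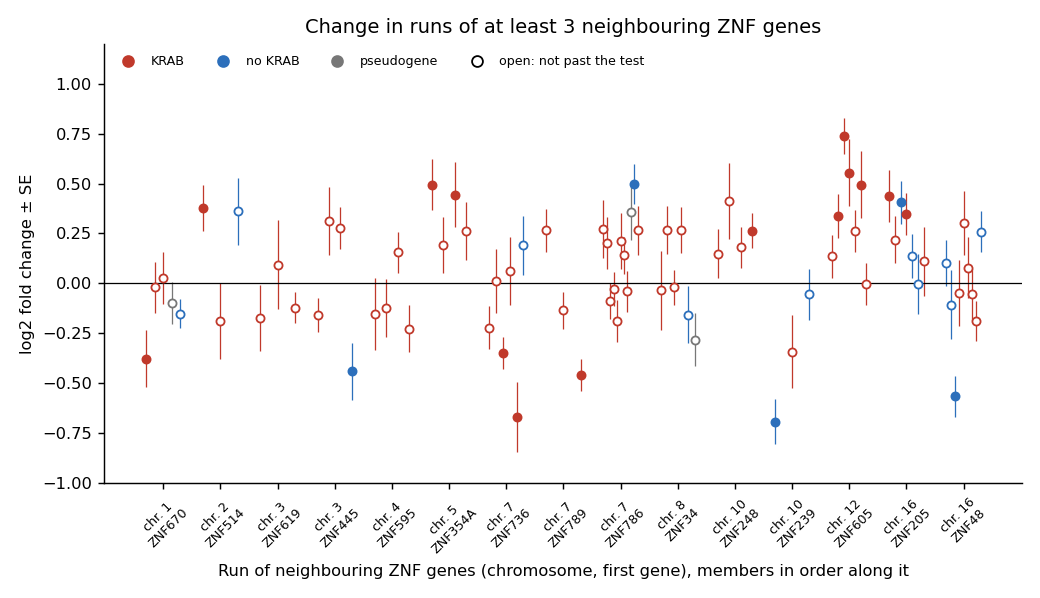
Log2 fold change (si-CHAF1A over si-Ctrl) ± SE of each ZNF gene in the 15 runs of at least 3 neighbours, labelled by chromosome and first gene, with the genes of a run in order along the chromosome; filled points passed edgeR's test. In the run that begins with ZNF605 on chromosome 12, 6 of 7 points lie above 0, while the run on chromosome 7 that begins with ZNF736 holds points from -0.67 to 0.19.

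Promoter sequence was next set beside the calls. The ETS core CCGGAAG, on either strand, was present in 38.8% of the 165 ZNF promoters at hand and in 10.7% of all 27305 promoters. For ZNF genes on chromosome 19 that met the count rule the share was 45.7%. By call, it was present in 4 of the 24 higher genes with a promoter, 10 of the 23 lower genes and 50 of the 118 genes not past the test. The share was thus lower in the higher genes, 16.7%, than in the lower ones, 43.5%, and the others, 42.4%. Without si-CHAF1A 2 the higher genes were 3 with the core and 9 without it, and the lower ones 5 and 9. The letters CCAAT were found in 44.8% of the ZNF promoters and 35.7% of all, and TATAAA in 4.24% and 12%. ZNF promoters held a median of 25 CG pairs against 14 for all promoters. The ZNF genes had passed a count limit, while all promoters were taken without regard to counts. These sets are thus unlike, and the part of expression in the differences was not tested. The motifs were chosen with the values of the genes known, so these shares are given with no test, and a match of letters shows no binding.

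Members with roles outside DNA silencing were read from fixed lists. Of 11 ZNF proteins of RNA, ribosomes and the spindle, 10 were tested, 1 was higher (ZNF385A) and none was lower. The share called was 10.0%, beside 37.8% of all tested genes. The other 9 tested genes of the list had a log2 fold change of at most 0.27 in size. ZNF207 (BuGZ), a spindle assembly factor chosen after its values were seen, was at 218 ± 17.1 CPM in si-Ctrl and 214 ± 12.4 CPM in si-CHAF1A. ZNF346, which binds double-stranded RNA as ZNF385A does, was at 20.4 ± 2.36 and 22.0 ± 1.24 CPM. ZNF106, an RNA-binding protein, was at 72.1 ± 1.93 and 67.4 ± 2.81 CPM. ZNF830, a splicing-associated protein, was at 14.1 ± 1.35 and 11.7 ± 0.71 CPM (adjusted p 0.0713).

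Of 26 ZNF transcription factors with described targets or partners, 24 were tested, 4 were higher and 5 lower, and 21 of the 26 belong to the 198 genes. The share called was 37.5%, beside 37.8% of all genes. ZNF503, ZNF292 and ZNF217 were described above. ZNF687, a partner of ZMYND8 in a chromatin-binding module, fell from 53.6 ± 4.56 to 40.8 ± 2.31 CPM (-0.39, adjusted p 0.00148). ZNF592, which belongs to the same module and was chosen after its values were seen, rose from 48.4 ± 1.65 to 59.7 ± 2.85 CPM (0.30, adjusted p 0.00415). These 2 partners thus moved in opposite directions, and both calls held without any 1 library. As the pair was formed with the values known, it does not stand for the module. ZNF423, a developmental factor under the count limit, rose from 0.40 ± 0.27 to 1.67 ± 0.19 CPM (2.01, adjusted p 0.00116).

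Among 13 ZNF genes with a SCAN domain, through which such proteins pair, 2 were higher and none lower. This makes 15.4% higher, beside 18.5% higher and 19.3% lower of all tested genes. The 2 higher genes were ZNF263 and ZNF483, the latter under the count limit, at 2.14 ± 0.11 and 3.67 ± 1.06 CPM. Without si-CHAF1A 2 neither passed (adjusted p 0.10 and 0.0591), and ZNF483 did not pass without si-CHAF1A 3 (0.124) or si-Ctrl 3 (0.0558) either. ZNF197, at 12.5 ± 1.11 and 15.1 ± 0.49 CPM, did not pass (adjusted p 0.0534), nor did ZNF496, at 58.3 ± 3.04 and 52.5 ± 1.61 CPM.

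KRAB and SCAN genes that bear ZKSCAN, ZSCAN or ZFP names, and RBAK, fall outside the name rule. Of 22 listed, 21 were tested, 3 higher and 2 lower. This makes 14.3% higher and 9.52% lower, beside 18.5% and 19.3% of all tested genes. ZKSCAN1 rose from 73.8, 70.8 and 74.3 CPM to 142, 148 and 135 CPM, a log2 fold change of 0.96 ± 0.07 (SE, adjusted p 2.71e-08). ZSCAN29 rose from 18.4 ± 1.39 to 27.7 ± 1.5 CPM (0.59, adjusted p 0.000147). ZKSCAN7 rose from 0.77 ± 0.33 to 1.73 ± 0.11 CPM (adjusted p 0.0149), a call lost without si-CHAF1A 2 or si-Ctrl 1 (0.0544 and 0.0703). ZFP69B fell from 2.00 ± 0.20 to 1.11 ± 0.28 CPM (adjusted p 0.0305), a call lost without si-CHAF1A 1, si-CHAF1A 3 or si-Ctrl 3 (0.0921, 0.118 and 0.0995). The other lower gene was ZSCAN9, named after its values were seen, at 10.1 ± 0.32 and 8.02 ± 0.52 CPM (adjusted p 0.0435). Its call held without si-Ctrl 2 but was lost without any 1 of the other 5 libraries, with an adjusted p of at most 0.135, and with DESeq2 (0.102) or no filter on low counts (0.0961).

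The corepressors that KRAB proteins use were followed as a fixed list of 32 genes, 29 of them tested. Of these 7 were higher and 11 lower, with a median log2 fold change of -0.08. This makes 24.1% higher and 37.9% lower, beside 18.5% and 19.3% of all tested genes. These sets differ in level, with a median in si-Ctrl of 93.5 CPM for the 29 genes and 17.4 CPM for all tested genes. The part of the level in these shares was not tested. TRIM28, which binds KRAB directly, was at 382, 486 and 383 CPM in si-Ctrl and 440, 358 and 408 CPM in si-CHAF1A. The groups overlapped, and the log2 fold change was -0.05 ± 0.09 (SE, adjusted p 0.70). It was 0.03 without si-CHAF1A 2 and 0.07 without si-Ctrl 2, so TRIM28 had no settled direction. SETDB1 was at 40.1 ± 1.47 and 36.1 ± 0.66 CPM and did not pass (adjusted p 0.132).

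Of the 3 HP1 genes 2 fell, as did the maintenance DNA methyltransferase. CBX3 (HP1γ) was at 326, 283 and 332 CPM in si-Ctrl and 171, 182 and 182 CPM in si-CHAF1A, a log2 fold change of -0.82 ± 0.07 (SE, adjusted p 3.14e-07). CBX5 (HP1α) fell from 373 ± 6.28 to 280 ± 3.29 CPM (-0.42, adjusted p 3.98e-05), and DNMT1, which copies DNA methylation after replication, from 238 ± 22.9 to 167 ± 4.63 CPM (-0.51, adjusted p 4.86e-05). CBX1 (HP1β) had a log2 fold change of -0.10 and did not pass. MTA1, a subunit of the NuRD deacetylase complex, rose from 97.7 ± 11 to 133 ± 5.39 CPM (0.44, adjusted p 0.000405). The count of 7 higher genes went down to 3 without si-CHAF1A 2, and to 4 without si-CHAF1A 1, si-CHAF1A 3 or si-Ctrl 3.

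**Figure D5:**
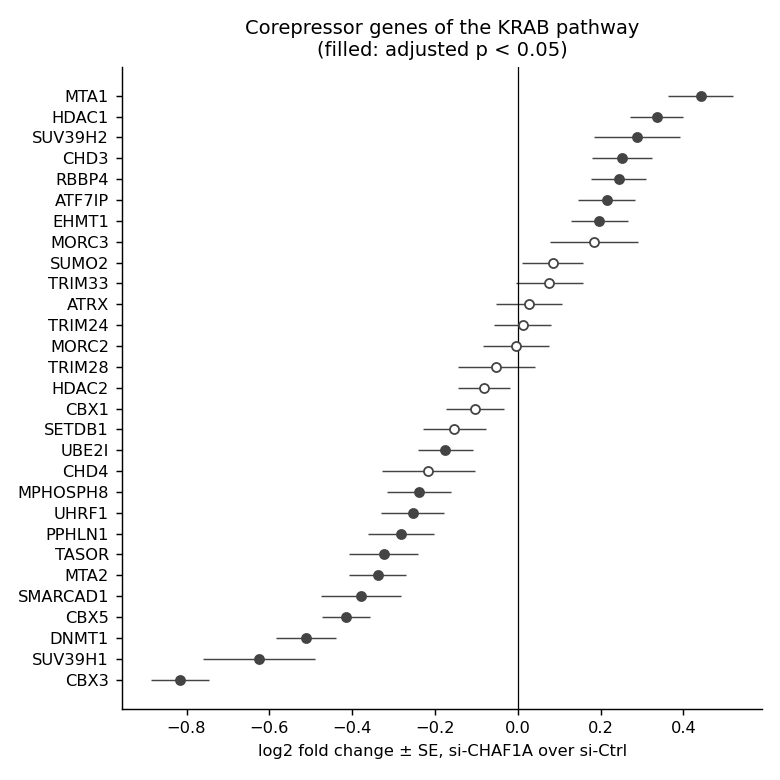
Log2 fold change ± SE (si-CHAF1A over si-Ctrl) of the 29 tested corepressor genes of the KRAB pathway, in order of size; filled points passed edgeR's test at an adjusted p under 0.05. CBX3 lies lowest at -0.82 and MTA1 highest at 0.44, and TRIM28 and SETDB1 are open points at -0.05 and -0.15.

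The count limit lay close to some genes. Taking the count of the third highest library, ZNF165, ZNF684 and ZNF821 were just inside it with 51, 52 and 53 counts, and ZNF365, ZNF501 and ZNF18 just outside with 45, 46 and 46. Of the 198 genes 188 reached the limit in all 6 libraries. ZNF821 alone passed through 1 group only, with 39, 43 and 36 counts in si-Ctrl and 53, 58 and 53 in si-CHAF1A, and it is not among the 33 higher genes. Of the 86 genes outside the limit 21 were tested, 5 of them higher and none lower. The shares of all tested genes were 18.5% higher and 19.3% lower. Besides ZNF423 and ZNF483 the 5 higher genes were ZNF501, at 1.51 ± 0.27 and 3.07 ± 0.29 CPM, and ZNF843 and ZNF487, named after their values were seen. ZNF843 was at 0.49 ± 0.16 and 1.27 ± 0.17 CPM, and ZNF487 at 1.57 ± 0.31 and 2.72 ± 0.40 CPM.

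Of the 57 calls, 29 (17 higher and 12 lower) held without each of the 6 libraries in turn. The direction held in all 57. For the 56 whose groups did not overlap, leaving out a library could hardly turn it, so this is no separate check. Without si-CHAF1A 2 the 198 genes gave 21 higher and 14 lower. Over all tested genes the counts also went down, from 2944 higher and 3064 lower to 2349 and 2358. Exons of 96 of the 198 genes overlap another gene's exons, 34 of the 57 called genes among them, and their reads could be assigned to either gene.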

How the data were processed

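RNA of 6 RBE cultures was sequenced with 150 bp reads, 3 per group. The authors deposited 1 table of whole-number read counts per gene, and these were not normalised. Per the submitters' processing notes the tools were fastp 0.20.1, HISAT2 2.1.0, SAMtools 1.9, featureCounts 2.0.1, StringTie 2.1.4 and the build hg38. No source used here gives the annotation release, the strand setting or what was done with multi-mapped reads, so counts of overlapping genes and close paralogs are uncertain. Columns named NC and si were matched to titles by group and number. The table held 0 columns of other samples.

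Genes were kept with filterByExpr (minimum count 10, minimum total 15) and tested with the robust quasi-likelihood test of edgeR 4.0.16 in R 4.3.3 with TMM scaling. P-values were adjusted over 15911 genes, at a threshold of 0.05. SE is the size of the log2 fold change divided by the square root of F. The script was tested on simulated data. The biological coefficient of variation was 8.12%. The labels do not say how the cultures of a group were made, so p-values rest on the spread among 6 samples that may be technical in part.

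Positions, exon lengths and proteins came from GENCODE 29, and 2 of the 198 genes were placed through RefSeq by symbol. KRAB was to be read from RefSeq proteins, but translated GENCODE transcripts were used, and the limit of 10 letters was set after the letter counts, not the fold changes, were seen. The genes and lists were chosen with earlier results of these data known. Genes were named by rule, namely CHAF1A, the 8 largest rises and falls without overlap, the 4 highest per length, up to 4 per list and 2 per run with the smallest adjusted p, and those nearest the count limit. Others are marked. Alternatives were DESeq2 1.42.0, its size factors in edgeR, upper quartile scaling, no filter, a fit that is not robust, a replicate block, other mean counts and leaving out each library.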

Additional observations from a re-analysis of the deposited data

How the results depend on the processing

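In ranges without 1 library in turn, the 198 genes gave 21 to 36 higher and 14 to 30 lower. KRAB genes gave 5 to 16 higher and 4 to 9 lower, and genes without KRAB 10 to 20 lower. Corepressors gave 3 to 6 higher, the ZKSCAN, ZSCAN and ZFP genes 0 to 3 lower, the RNA and spindle list 0 to 1 lower, the transcription factors 3 to 5 lower and the SCAN genes 0 to 3 higher. The highest member counts arose without si-Ctrl 2 and the lowest without si-CHAF1A 2. All tested genes gave 2346 to 3519 higher and 2358 to 3709 lower, the highest counts also without si-Ctrl 2. The cause was not tested, beyond that fewer samples enter each fit. Upper quartile scaling gave 42 members higher and 20 lower, and DESeq2 30 and 21. With no filter on low counts, corepressors gave 4 higher and the ZKSCAN, ZSCAN and ZFP genes 0 lower. DESeq2 also gave 0 lower of the latter, and upper quartile scaling 1. The median log2 fold change was 0.0568 with upper quartile scaling, which moved that of all genes to 0.05, and -0.0202 for members with a mean count of at least 200. The direction of the 57 called members held under all 12 alternatives. The groups of 56 of them did not overlap, so leaving out a library could hardly turn it. The labels do not say whether a replicate number pairs samples. Deviations from the group means had correlations of -0.086, -0.064 and -0.003 in same-numbered libraries. In differently numbered ones they ran from -0.026 to 0.090. With 3 libraries per group these values show no pairing but cannot exclude one. With the number as a replicate block, 29 members were higher and 21 lower, corepressors gave 4 higher, and the ZKSCAN, ZSCAN and ZFP genes 1 lower. Depth limits the least abundant members, at about 2 CPM. No group had the 4 libraries needed to look for outlying values.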
